A study of Mus musculus with 8 samples.

Results

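The genes described are 9 mouse genes of vitamin A (retinoid) metabolism, Cyp26b1, Aldh1a1, Aldh1a2, Aldh1a3, Rbp2, Rbp7, Rarb, Stra6 and Bco1, out of the 32285 genes listed in each of 8 libraries. They were matched by symbol, and each symbol had 1 row. They had been picked from levels seen in these same libraries, so their levels are given as a description and no test is made on them. All material was mouse intestine on the C57BL/6 background. The libraries were organoids of the small intestine (epithelial cultures at passage 1) grown without other cells (control) or in coculture, single cells of small and of large intestine, and Visium sections of both tissues. Each organoid condition and each tissue of single cells was 1 library, and there were 2 sections of 10 µm per tissue that were technical duplicates of untreated wild-type gut. For each organoid condition 16 wells were pooled, and 100000 epithelial cells were sorted. The labels do not name the coculture partner.

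For the tissue libraries, live cells were enriched for Lgr5-positive stem cells and for lymphatic endothelial cells sorted on CD31, PDPN and LYVE1. C57BL/6 mice and mice with the Lgr5-eGFP-ires-CreERT2 reporter allele were used, and the labels do not say which strain gave which cells. The age of the animals was not given in the sources used here. Shares of cell types in these libraries therefore describe the sort. After filtering, 538 control and 1028 cocultured organoid cells, 2695 of 8842 small intestinal and 5882 of 8646 large intestinal barcodes were kept, with median counts of unique molecular identifiers (UMIs) between 11810 and 86295 per cell. Of the small intestinal barcodes 62.2% were over the mitochondrial limit, and of the large intestinal ones 23.8%. The sections held 2094 and 2571 spots of small intestine and 2094 and 2179 of large intestine. The tissue libraries shared 25 barcodes and the organoid libraries 0.

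Vitamin A enters the enterocyte as retinol or as beta-carotene, which Bco1 cleaves to retinaldehyde. Rbp2 and Rbp7 carry retinol inside cells, and Stra6 is a membrane receptor that takes up retinol from its plasma carrier. The enzymes Aldh1a1, Aldh1a2 and Aldh1a3 oxidise retinaldehyde to retinoic acid, which acts through nuclear receptors such as Rarb. The cytochrome Cyp26b1 oxidises retinoic acid to inactive products and so limits how far it reaches. In the gut, retinoic acid made by stromal and dendritic cells is known for directing lymphocytes to the mucosa.

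Levels below are UMIs of a gene per 1000000 summed UMIs (CPM) of a cell class, library or section, each followed by its exact 95% Poisson interval, which covers counting error only. Cell classes were clusters with the markers of a cell type and carry the ending "-like". Ratios are log2 ratios of CPM with the exact interval of a ratio of counts. A count of 0 was set to 3 UMIs per group, and such a ratio is a lower bound. With 1 library per group no ratio has a replicate check. A gene was called higher or lower where the log2 ratio reached 1 in size with an interval that excluded 0, among genes with at least 20 UMIs in both groups together.

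Cyp26b1 lies on chromosome 6 (84571414 to 84593908, GRCm38.p6) and Rarb on chromosome 14 (16430839 to 17082331). Both were high in small intestinal lymphatic endothelial-like cells. The 250 bases before their RefSeq start sites are shown because Rarb is the textbook example of a gene whose promoter holds a retinoic acid response element. Capitals mark a direct repeat of the retinoic acid receptor motif with 5 bases between the copies (a DR5 element).
Rarb, chr14:16575477-16575726, minus strand: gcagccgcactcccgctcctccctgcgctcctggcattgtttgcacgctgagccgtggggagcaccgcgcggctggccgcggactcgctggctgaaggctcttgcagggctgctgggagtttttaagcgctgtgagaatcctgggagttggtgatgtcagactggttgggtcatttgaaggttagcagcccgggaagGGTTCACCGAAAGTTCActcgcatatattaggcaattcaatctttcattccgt
Cyp26b1, chr6:84593811-84594060, minus strand: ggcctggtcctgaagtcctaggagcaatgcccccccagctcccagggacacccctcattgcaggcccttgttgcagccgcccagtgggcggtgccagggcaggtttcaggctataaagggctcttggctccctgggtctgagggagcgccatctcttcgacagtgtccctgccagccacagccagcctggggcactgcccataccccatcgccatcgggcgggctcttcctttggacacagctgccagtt
The Rarb element lay at positions -53 to -37 from the start site. That start site lies inside the span given for Rarb, and the upstream end of the span was not searched. Windows of 300 bases around the start (250 before and 50 after) were searched on both strands, and 106 of 32851 RefSeq windows, or 0.323%, held a DR5 element. A repeat with 2 bases between the copies (DR2) was in 0.472% of windows. Of the 8 genes that had a window, Rarb was the 1 with either element. The strict single motif AGGTCA was on the reverse strand once in the Rbp2 window and at 2 places in the Bco1 window, and 16.3% of all windows held it. These matches describe the letters of the windows and no binding was measured.

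Cyp26b1 was by far most abundant in endothelium. In the small intestine, 802 UMIs in 266 lymphatic endothelial-like cells gave 723 CPM (674 to 775). The 39 blood endothelial-like cells gave 496 CPM (388 to 624), from 72 UMIs in 16 cells, 1 of which held 21. The large intestine differed: 107 UMIs in 87 blood endothelial-like cells gave 269 CPM (220 to 325) and lay in 34 cells, 1 of which held 19, whereas the 205 lymphatic endothelial-like cells had 0 UMIs among 564986. At the small intestinal level those cells would have held 408 UMIs.

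With the count of 0 set to 3 UMIs, lymphatic Cyp26b1 was at least 136-fold higher in the small intestine, a log2 ratio of 7.09 whose interval for counting error reaches down to 6.79. It was 7.04 without the cell that held the most Cyp26b1 UMIs and 6.36 with cells gated one by one on markers. Among all 8299 genes tested in this class 10.3% were called in either direction, and the median log2 ratio of all of them was 0.03. The blood endothelial ratio was 0.88 (0.43 to 1.33), short of the size asked for though 1.50 as a mean over cells, and 12% of genes were called in that class. Of the 25 barcodes that the tissues shared, 1 was among the small intestinal lymphatic cells, and the level without it was 724 CPM.

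**Figure D1:**
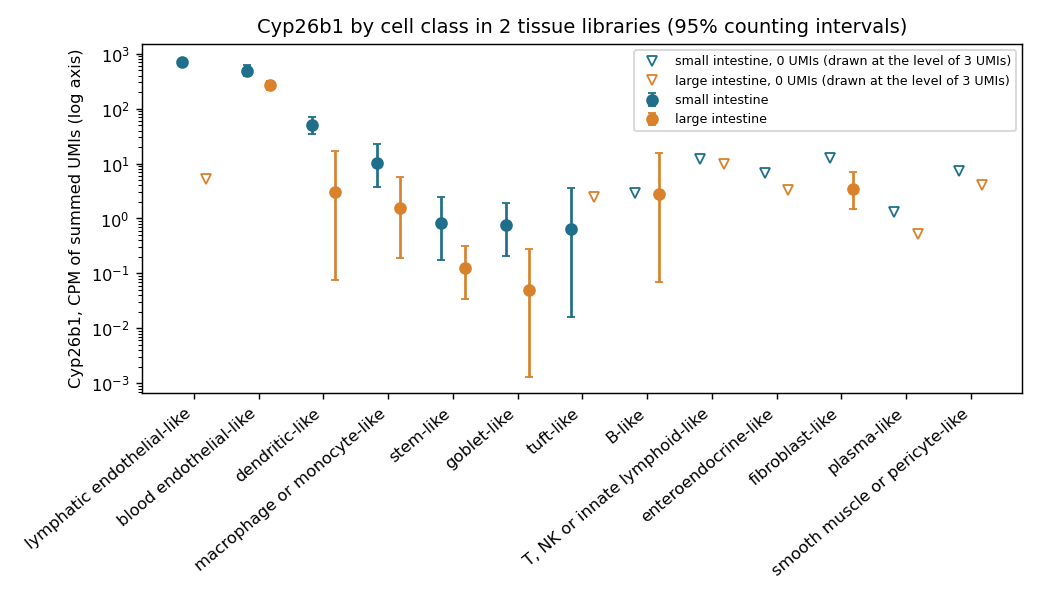
Cyp26b1 in CPM of summed UMIs (log axis) for the cell classes present with at least 20 cells in both tissue libraries. Points are class sums with 95% Poisson intervals, and open triangles mark classes with 0 UMIs, drawn at the level of 3 UMIs. Lymphatic endothelial-like cells are at 723 CPM in the small intestine and have 0 UMIs in the large intestine, while blood endothelial-like cells are at 496 and 269 CPM.

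The lymphatic identity of both classes rested on their markers. In the small intestine Mmrn1 was at 5719 CPM, Lyve1 at 4518, Flt4 at 1720 and Prox1, the master regulator of lymphatic fate, at 801. Large intestinal lymphatic cells had the same genes at 4995, 5329, 989 and 689 CPM. Of the 8 blood endothelial markers, Esm1, Vwf and Sox17 had 0 UMIs in both lymphatic classes. Plvap, which builds the diaphragms of blood capillaries, was at 15.3 CPM (17 UMIs) in the small and 90.3 CPM (51 UMIs) in the large intestinal lymphatic class. Flt1 had 4 and 0 UMIs there, Ly6c1 0 and 1, and Rgcc 3 and 4. The water channel Aqp1, also on that list, had UMIs in 257 of the 266 small intestinal and 114 of the 205 large intestinal lymphatic cells, at 2905 and 782 CPM. Of the 6 lymphatic markers, Prox1, Mmrn1 and Pdpn had 0 UMIs in both blood endothelial-like classes. Flt4 was at 68.8 CPM (10 UMIs) and 67.9 CPM (27 UMIs) in those classes, Ccl21a had 1 UMI in each, and Lyve1 had 1 and 0. The 252 cells without a UMI of the other 7 blood markers had 713 CPM of Cyp26b1. The 9 cells that also lacked Aqp1 held 3 Cyp26b1 UMIs, or 118 CPM.

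Most lymphatic cells of the small intestine carried the transcript. A Cyp26b1 UMI was found in 204 of the 266 cells, and the cell with the most held 32 of the 802 UMIs. After each cell was thinned to 2000 UMIs, 155 of 250 cells (62%, exact binomial 95% interval 55.7 to 68.0) had one. In B-like cells of the same library, a type not known for this enzyme, the thinned share was 0 of 272, and a count of 0 taken as at most 3 cells allows up to 1.10%. The large intestinal lymphatic class had 0 of 115 thinned cells, which by the same rule allows up to 2.61% of cells with a UMI at that depth. Median depth was 3906 UMIs in the small and 2292 in the large intestinal lymphatic cells and 2800 in the B-like cells.

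Within the small intestinal lymphatic class Cyp26b1 was uneven. A subcluster of 112 cells led by interferon-induced genes (Ifit3, Ifit2, Ifit1, Isg15) had 912 CPM (829 to 1001). The other 154 cells, led by Serpine2 and Hoxd9, had 573 CPM (515 to 636). Rarb was at 116 and 95.3 CPM in these 2 subclusters, with overlapping intervals. Rarb UMIs were found in 30.9% of the cells with a Cyp26b1 UMI and in 32.3% of those without, and after thinning in 15.7% and 17.6%. That thinning was a separate draw, in which 159 of 250 cells held a Cyp26b1 UMI. An unnamed small intestinal cluster of 83 cells with a median of 1284 UMIs, led by Sema3d, Dmtn and Clec1a, held 64 Cyp26b1 UMIs at 499 CPM. Cyp26b1, Rarb and the other retinoid pathway genes were left out of the clustering. The leading genes were read from the same cells that were clustered, so the subclusters are a description.

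Dendritic-like cells came next in the small intestine. They had 32 Cyp26b1 UMIs in 63 cells, 50.5 CPM (34.5 to 71.3), all in a cluster with Xcr1, a marker of cross-presenting dendritic cells. Those of the large intestine had 1 UMI in 37 cells, and the log2 ratio was 4.05 (1.46 to 9.39), where 10.8% of genes were called. UMIs were in 9 small intestinal cells, and the ratio was 1.77 with the top cell of either library left out, where the large intestinal count of 0 was set to 3. Macrophage or monocyte-like cells had 10.3 CPM (3.78 to 22.4) in the small intestine, Paneth-like cells 0.88 and enterocyte-like cells 1.37 CPM. The class after blood endothelium in the large intestine was fibroblast-like, with 8 UMIs and 3.49 CPM (1.51 to 6.88). The related enzymes Cyp26a1 and Cyp26c1 had 0 UMIs in each class of both tissue libraries.

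Rarb, the retinoic acid receptor gene that retinoic acid itself induces, led in the lymphatic endothelium-like classes of both tissues, among classes of 20 or more cells. It had 116 UMIs and 105 CPM (86.4 to 125) in the small intestine and 32 UMIs and 56.6 CPM (38.7 to 80.0) in the large intestine. The log2 ratio was 0.88 (0.31 to 1.50), which did not reach the size asked for, and it was 1.52 when doublets were kept. Smooth muscle or pericyte-like cells came next with 17.4 and 15.1 CPM, from 7 and 11 UMIs. Blood endothelial-like cells had 1 and 3 Rarb UMIs. The large intestinal lymphatic class thus held Rarb while it had 0 UMIs of Cyp26b1.

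Rbp7 was lower in small than in large intestinal lymphatic cells. It encodes a retinol-binding protein known from blood vessel endothelium, and blood endothelial-like cells led in both tissues with 365 CPM (273 to 477) in the small and 636 CPM (560 to 719) in the large intestine. In lymphatic endothelial-like cells it was at 17.1 CPM (10.3 to 26.7; 19 UMIs) in the small and 99.1 CPM (74.9 to 129; 56 UMIs) in the large intestine, a log2 ratio of -2.53 (-3.37 to -1.76). In the large intestine 4 of the 205 lymphatic cells held at least 0.5 of its 56 UMIs. The blood endothelial marker Plvap, at 15.3 and 90.3 CPM in the same classes, moved with Rbp7, and its part in the difference was not tested. The blood endothelial ratio was -0.80 (-1.26 to -0.37). In the small intestine, 1 blood endothelial cell held 32 of 53 Rbp7 UMIs, and without the top cell of each library that ratio was -1.97. The small intestinal epithelium also held Rbp7, at 135 CPM in cycling-like and 59.8 CPM in enterocyte-like cells. Stem-like cells had 13.4 against 2.22 CPM, a ratio of 2.59, in a class where 16.6% of genes were called, but the ratio ran from 0.60 to 4.44 with other cell filters and resolutions.

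Of 9 members, 4 could be tested in lymphatic endothelial-like cells, of which Cyp26b1 was called higher and Rbp7 lower. Since the members were chosen with these levels known, nothing is read from that count. Among 50 other genes of the retinoid pathway, 15 were tested, 3 were called higher in the small intestine, Cd36 and Dhrs3 among them, and 0 lower, with a median log2 ratio of 0.32, where 10.3% of all genes tested were called in either direction. Dhrs3, which reduces retinaldehyde back to retinol, was at 399 CPM (363 to 438) against 143 (114 to 178), a log2 ratio of 1.48. Cd36, a scavenger receptor for lipids, was at 40.6 against 7.08 CPM.

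Epithelial RNA outside epithelial cells differed between these libraries. The 8 Paneth markers summed to 7196 CPM in the small intestinal and to 33.6 CPM in the large intestinal lymphatic class, with 5 of the 8 at 0 in the latter. The 8 goblet markers summed to 921 and 2961 CPM, with each of the 8 detected in both. The part of such RNA in the lymphatic differences was not tested.

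**Figure D2:**
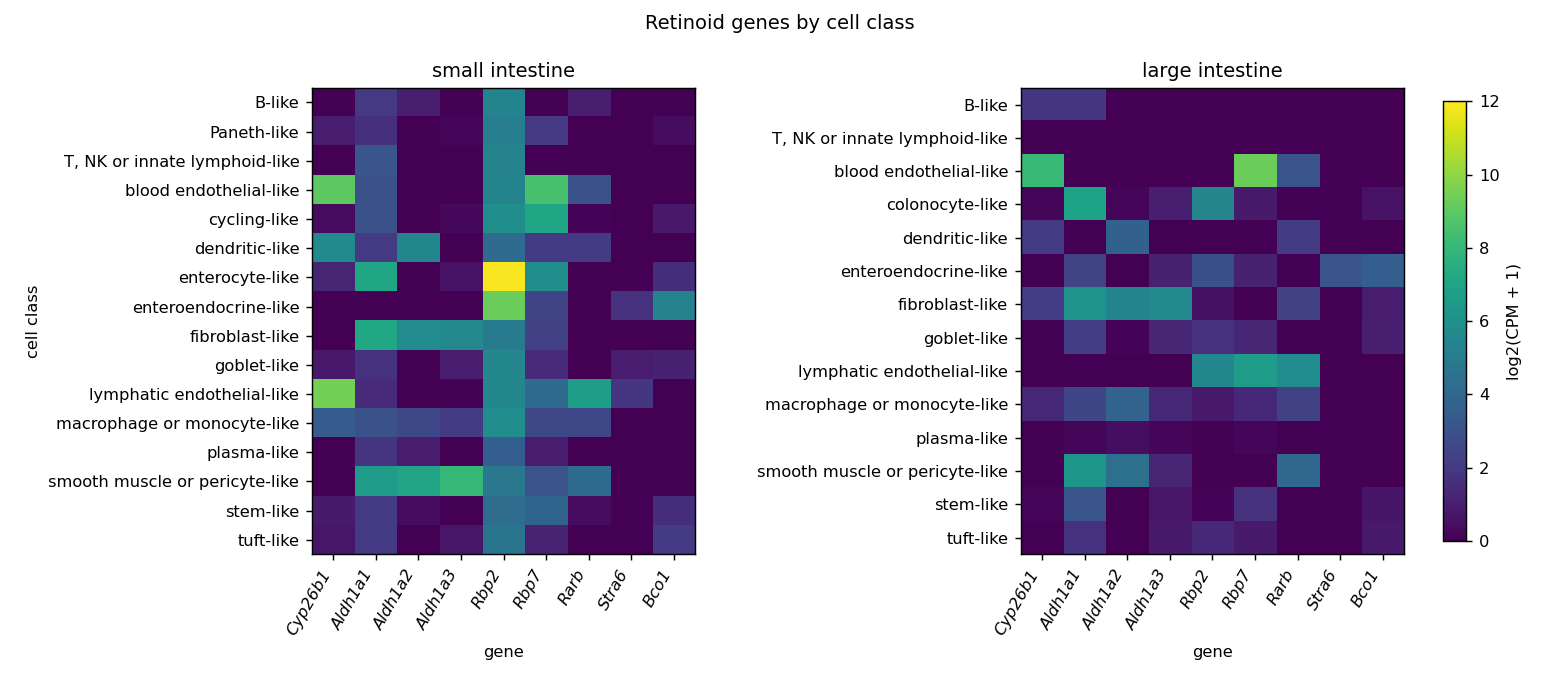
Levels of the 9 genes, as log2(CPM + 1) on a colour scale, by gene (columns) and cell class of at least 20 cells (rows) in the small intestinal (left) and large intestinal (right) single-cell library. Cyp26b1 and Rbp7 are high in blood endothelium, and Cyp26b1 also in small intestinal lymphatic endothelium. Rbp2 is high in small intestinal enterocyte-like cells at 3758 CPM. Aldh1a1 is high in stroma and absorptive epithelium, and Aldh1a2 and Aldh1a3 mainly in stroma.

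The enzymes that make retinoic acid were found mainly in stromal, myeloid and absorptive cells. Aldh1a2 and Aldh1a3 had 0 UMIs in the lymphatic endothelial-like cells of both tissues, and Aldh1a1 had 2 and 0. Aldh1a1 in the small intestine was at 146 CPM (102 to 203) in fibroblast-like, 135 (128 to 143) in enterocyte-like and 97.2 (69.1 to 133) in smooth muscle or pericyte-like cells. The fibroblast and enterocyte levels did not differ beyond their counting error. A cluster of 14 glia-like cells, under the 20 cells asked for, had 28 UMIs at 294 CPM. In the large intestine colonocyte-like cells led with 123 CPM (114 to 132), before smooth muscle or pericyte-like (81.2) and fibroblast-like cells (70.3). An unnamed cluster of 65 large intestinal cells led by Cxcl14, Nrg1 and Bmp5 had 279 CPM.

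Aldh1a2 in the small intestine was highest in smooth muscle or pericyte-like cells, 127 CPM (94.6 to 167), followed by fibroblast-like (54.1) and dendritic-like cells (44.2), whose intervals overlapped. The dendritic UMIs, 28 in number, lay in the Xcr1 cluster that also held Cyp26b1. In the large intestine fibroblast-like cells led with 41.1 CPM (33.2 to 50.2), before smooth muscle or pericyte-like (20.7, from 15 UMIs), macrophage or monocyte-like (13.3, from 17 UMIs) and dendritic-like cells (12.2, from 4 UMIs). The dendritic log2 ratio was 1.85 (0.34 to 3.83), and it was 0.23 with a looser cell filter. A muscle ratio of 2.62 (1.77 to 3.56) was called, where 18.1% of genes were. The small intestinal muscle class held more fibroblast marker RNA than the large intestinal one, as given below, and its part in this ratio was not tested.

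Aldh1a3 was at 257 CPM (209 to 311; 103 UMIs) in small intestinal and 1.38 CPM (1 UMI) in large intestinal smooth muscle or pericyte-like cells, a log2 ratio of 7.54 (5.03 to 12.86). Fibroblast-like cells had 50.0 and 50.2 CPM, a ratio of -0.01 that was 1.94 with cells gated one by one. The 6 fibroblast markers summed to 14122 CPM in the small intestinal and 5735 CPM in the large intestinal smooth muscle or pericyte-like class, with none of them at 0, and the 8 muscle markers to 15876 and 27748 CPM. The small intestinal class was 1 cluster whose leading genes included the fibroblast gene Adamdec1, and its part in the difference was not tested. Fibroblast-like Aldh1a1 had a ratio of 1.05 (0.48 to 1.59), called where 8.78% of genes were. It was between 0.45 and 0.90 under 5 alternatives (looser, stricter and per-cell selection, resolution 0.5 and top cells left out), all short of the size asked for.

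Rbp2, the retinol carrier of absorptive cells, held 48558 UMIs in the small intestinal library, against 458 in the large intestinal one. Its enterocyte-like cells had 3758 CPM (3720 to 3795), and 1 cluster of 61 of them, led by Cyp2b10, Leap2 and Fabp1, had 11005 CPM. Enteroendocrine-like cells, which secrete gut hormones, had 607 CPM (536 to 684) against 6.70 in the large intestine. Small intestinal B-like (42.3), blood endothelial-like (41.3), lymphatic endothelial-like (46.0) and T, NK or innate lymphoid-like cells (40.5) had low levels. The other non-epithelial classes of 20 or more cells lay between 11.0 CPM in plasma-like and 58.4 CPM in macrophage or monocyte-like cells. In the large intestine colonocyte-like cells were at 42.7 CPM (37.6 to 48.3). Lymphatic endothelial-like cells there had 44.2 CPM (28.6 to 65.3), with 25 UMIs in 21 of 205 cells, while the blood endothelial-like, B-like and T, NK or innate lymphoid-like cells had 0. The 8 enterocyte markers summed to 49.6 CPM in that lymphatic class with 5 of them at 0, and to 30.2 CPM in the blood endothelial-like class with 6 at 0.

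Bco1 was low and highest in enteroendocrine-like cells of both tissues, with 18 UMIs and 40.9 CPM (24.3 to 64.7) in the small and 10 UMIs and 11.2 CPM (5.35 to 20.5) in the large intestine. The log2 ratio of 1.87 (0.68 to 3.15) was called where 18.5% of genes were, and it was 4.43 as a mean over cells. Enterocyte-like cells had 1.95 CPM. Stra6 was close to absent, with at most 7 UMIs in any class of either tissue, those in large intestinal enteroendocrine-like cells at 7.81 CPM (3.14 to 16.1).

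Profiles over 30 classes of the 2 tissue libraries were compared among 12427 genes, on the scale log2(CPM + 10), as a description. Genes most like Cyp26b1 were Rsad2 (Pearson r 0.90), Depp1, Shank3, Sema7a and Fabp4 (0.86). With log2(CPM + 1) they were Kdr, Thrsp, Clec1a, Cdh5 and Robo4, and the lists shared 0 of 5 genes. Rarb was like Pald1 and Tspan18 (0.94 each), Rbp7 like Clca3a1, Pkn3 and Cyyr1, and Aldh1a3 like Gabra3 (0.99), Adamts19 and Kcnk2. Aldh1a2 was most like Stbd1, P2ry14 and Mmp19, Aldh1a1 like Aspa, Adamtsl5 and Pcsk5, and Rbp2 like Apoa1, Sis and Npc1l1. Apoa1 and Sis are among the markers that named the classes, so their likeness is partly built in. With log2(CPM + 1) Tspan18 left the list of Rarb and Kcnk2 that of Aldh1a3. Aspa left the list of Aldh1a1 and Npc1l1 that of Rbp2, while the genes named for Rbp7 and Aldh1a2 stayed. The classes of a tissue share their library and differ in depth.

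In organoids, which hold epithelium only, Cyp26b1 had 1 UMI in the control and 3 in the cocultured library, and Rarb and Aldh1a2 had 0 in both. Among 13953 genes tested 7.02% were called in either direction, and the median log2 ratio of coculture over control was -0.11. Of the 9 members 5 were tested, and Aldh1a3 and Bco1 were called lower. Aldh1a3 was at 3.03 CPM (2.53 to 3.59; 131 UMIs) in the control and 0.35 CPM (0.24 to 0.49; 34 UMIs) in coculture, a log2 ratio of -3.11 (-3.70 to -2.56). In the control, 36 of 538 cells held it, and 1 cell held 40 of the UMIs. Without the top cell of each library the ratio was -2.82.

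Bco1 was at 8.39 CPM (7.55 to 9.30) in the control and 3.83 (3.45 to 4.24) in coculture, a ratio of -1.13 (-1.34 to -0.92). Rbp2 was at 2891 and 4120 CPM, a ratio of 0.51 (0.50 to 0.52). Aldh1a1 was at 7.19 (6.41 to 8.03) and 13.9 CPM (13.2 to 14.7), a ratio of 0.96 (0.78 to 1.14), and Rbp7 at 12.7 and 21.5 CPM, a ratio of 0.76 (0.63 to 0.90). These 3 were higher in coculture without reaching the size asked for, and Aldh1a1 passed it, at 1.19, as a mean over cells. Enterocyte-like cells were 49 of 538 in the control and 185 of 1028 in coculture, and clusters without a name held 228 and 448 cells.

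**Figure D3:**
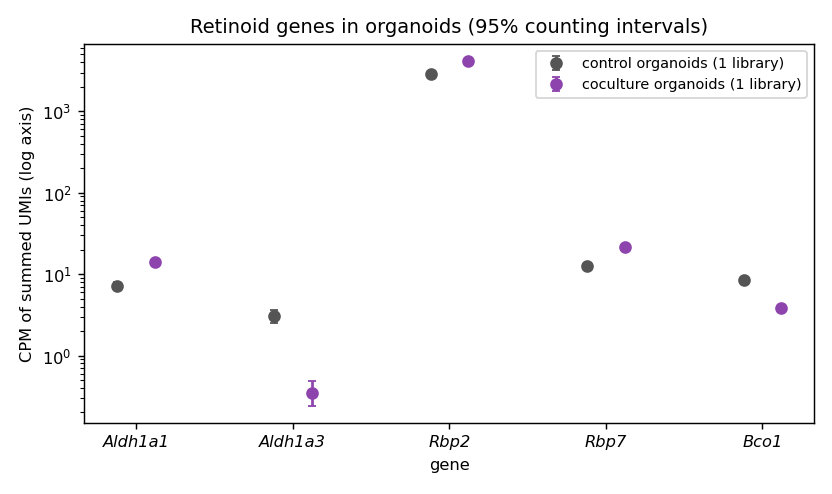
Whole-library CPM (log axis) of the 5 members with enough UMIs, in the control and the cocultured organoid library, with 95% Poisson intervals for counting error. Aldh1a3 goes from 3.03 to 0.35 CPM and Bco1 from 8.39 to 3.83, while Rbp2, Rbp7 and Aldh1a1 are higher in coculture.

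Within organoid cell classes the picture differed by gene. In enterocyte-like cells Rbp2 was at 15789 CPM in the control and 15402 in coculture, a ratio of -0.04 (-0.05 to -0.02). Bco1 in the same cells was at 50.5 and 5.26 CPM, a ratio of -3.26 (-3.66 to -2.88), and Rbp7 at 1.09 (4 UMIs) and 9.08 CPM (138 UMIs), a ratio of 3.06 (1.67 to 4.95). In this class 4.28% of genes were called. The class was 2 clusters, and in coculture 133 of the 138 Rbp7 UMIs were in the one led by Gstm3 and Anpep (80 cells, 17.03 CPM, against 2.64 CPM from 3 UMIs in 14 control cells). The other, led by Cyp3a11 and Apoc3, had Rbp7 at 0.68 against 0.40 CPM, from 5 and 1 UMIs. Bco1 was lower in coculture in both, at 0.51 against 42.3 CPM in the first and 10.3 against 54.2 CPM in the second. The first cluster held 80 of 185 enterocyte-like cells in coculture and 14 of 49 in the control. In regenerative epithelial-like cells, a class with the wound-associated genes Clu and Anxa1, Bco1 was higher in coculture, at 38.0 against 13.2 CPM, a ratio of 1.53 (1.10 to 1.96). These cells, 84 in the control and 37 in coculture, held 112 and 2 Aldh1a3 UMIs, a ratio of -4.73 (-7.80 to -2.85), where 10.8% of genes were called. The 112 UMIs lay in 19 of the 84 control cells, and 3 cells held at least 0.5 of the Aldh1a3 UMIs of the whole control library.

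Of the other 50 pathway genes, 37 were tested in whole organoid libraries, with 4 called higher in coculture (Itga4, Adh4, Rbp4 and Isx) and 3 lower (Dhrs9 and Rdh10 among them), and a median of 0.14, where 7.02% of all genes tested were called in either direction. Isx is the transcription factor known for restraining Bco1 and vitamin A uptake in the gut. Adh4, Rdh10 and Dhrs9 oxidise retinol.

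In the Visium sections, where fewer cells of a type and less RNA per cell cannot be told apart, Cyp26b1 was higher in the small intestine. It was at 4.02 and 4.25 CPM in the 2 small intestinal sections (98 and 128 UMIs) and at 1.02 and 0.78 CPM in the 2 large intestinal ones (42 and 34 UMIs), and the tissues did not overlap. The log2 ratio of section means was 2.21. As a bound, the lower small intestinal section over the higher large intestinal one gave 1.98. A gene was called where this bound reached 1 in size, which 21.3% of 16839 genes did in either direction, and all such comparisons rest on technical duplicates.

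Rbp2, Aldh1a3 and Aldh1a1 were also called higher in the small intestine, so 4 of 9 members were, and 0 were called lower, where 21.3% of all genes were called in either direction. The members were chosen with such levels known, and nothing is read from the count. Rbp2 was at 214 and 248 CPM against 16.2 and 20.5, a ratio of 3.66. Aldh1a3 was at 19.6 and 27.6 CPM against 4.85 and 4.70, a ratio of 2.31. Aldh1a1 was at 70.2 and 92.5 CPM against 28.5 and 27.4, a ratio of 1.54. Bco1 (4.97 and 5.88 against 2.57 and 2.26 CPM) and Aldh1a2 (6.12 and 4.19 against 2.50 and 2.24 CPM) did not overlap between tissues but missed the bound. Rarb was at 1.44 and 1.93 against 1.19 and 0.96 CPM. The sections of Rbp7 overlapped, at 6.65 and 3.36 against 3.05 and 3.97 CPM. Stra6 was at 0.29 and 0.13 against 0.41 and 0.37 CPM, from at most 17 UMIs a section. Among 44 other pathway genes tested, 6 were called higher and 7 lower, with a median of -0.01, beside the same 21.3% of all genes. They included Dgat1 and Lrat, which esterify retinol, on the higher side, and Ttr and Rbp4, the plasma carriers of retinol, on the lower.

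**Figure D4:**
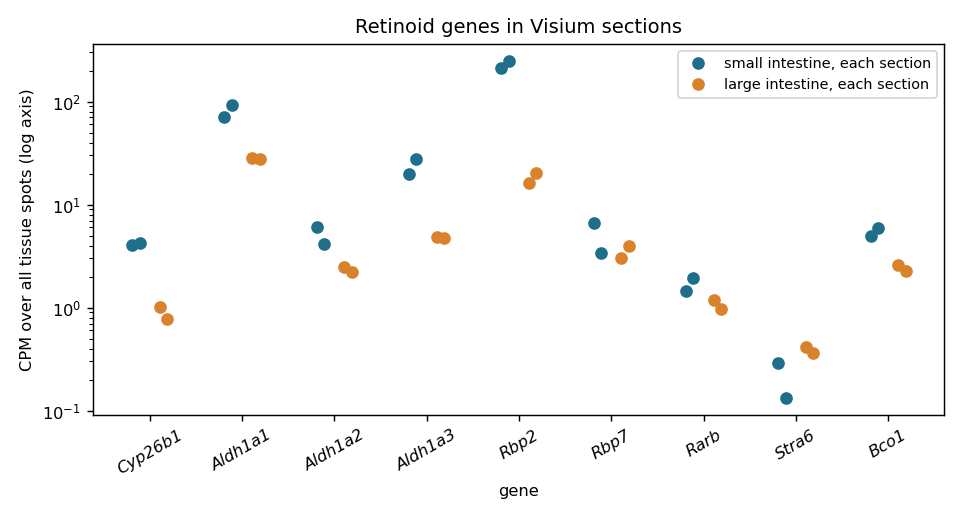
CPM over all tissue spots (log axis) of the 9 genes in each Visium section, 2 per tissue. Points of the tissues overlap for Rbp7 only, and Rbp2 shows the widest gap, with 214 and 248 against 16.2 and 20.5 CPM.

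Spots were then split within each section by the UMIs of a marker list after thinning to 2000 UMIs, with spots above the section's 75th percentile called high. A spot holds several cells, and a gene was called where its log2 ratio reached 1 with an interval above 0 in both sections. In lymphatic-high spots (any UMI of Lyve1, Prox1, Ccl21a, Mmrn1 or Flt4) of the small intestine, Cyp26b1 was at 7.89 and 11.2 CPM against 3.66 and 3.68 elsewhere, ratios of 1.11 and 1.61, where 3.56% of genes were called higher. For the large intestine it was at 3.12 and 1.79 CPM against 0.76 and 0.64, ratios of 2.03 and 1.47, where 10% were. The large intestinal spots rested on 14 and 9 UMIs.

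Fibroblast-high spots of the large intestine had Cyp26b1 ratios of 1.61 and 2.93, where 11.2% of genes were called higher. Muscle-high ones had 1.19 and 1.79, where 16.3% were. Plasma-high spots had 1.33 and 1.10 in the small intestine, where 2.46% of genes were called higher, and -0.01 and 0.42 in the large. Among clusters of large intestinal spots, Cyp26b1 with more than 3 UMIs in each section was highest in one led by Ccl21a, Mmrn1 and Lyve1, at 4.87 and 2.05 CPM (13 and 6 UMIs). There the 6 lymphatic markers summed to 923 and 726 CPM and the 8 blood endothelial markers to 506 and 502 CPM. The small intestinal level was highest in both sections, by the same minimum, in a cluster led by the antibody genes Iglc1, Jchain and Igha, at 15.6 and 11.9 CPM (23 and 32 UMIs). The lymphatic markers summed there to 52.2 and 36.9 CPM, the blood endothelial ones to 252 and 305 and the dendritic ones to 36.6 and 30.5. The 6 plasma cell markers were high in both of these clusters, with summed levels of 49748 and 55403 CPM in the antibody gene cluster and of 60749 and 56072 CPM in the Ccl21a cluster. A Paneth cell gene cluster (Defa35, Defa5) had 4.71 and 7.85 CPM of Cyp26b1, with lymphatic markers at 210 and 360 CPM and blood endothelial markers at 310 and 392 CPM. The part of each cell type in these levels was not tested.

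Among the splits by marker list, Rarb was highest in muscle-high spots. There it was at 4.82 and 7.23 CPM against 0.57 and 0.39 in the small intestine, ratios of 3.08 and 4.21, where 23.8% of genes were called higher. Its large intestinal levels were 7.44 and 4.07 CPM against 0.33 and 0.40, ratios of 4.49 and 3.33, where 16.3% were. Spot clusters led by enteric neuron genes (Vip, Uchl1) had 18.5 and 14.7 CPM in the large and, with Gal and Nmu, 6.01 and 9.83 CPM in the small intestine. Lymphatic-high spots had ratios of 2.37 and 1.62 in the large intestine and of 0.61 and 1.25 in the small, the last 2 from 4 and 9 UMIs.

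In small intestinal muscle-high spots Aldh1a2 had ratios of 2.03 and 3.12 and Aldh1a3 of 1.98 and 1.89, and in the large intestine these were 2.50 and 2.43, and 1.47 and 1.57. Aldh1a1 had 0.99 and 1.09 in the small and 1.18 and 0.76 in the large intestine, short of the size asked for in 1 section of each tissue. Cyp26b1 had ratios of -0.38 and 0.27 in the small intestinal muscle-high spots. Rbp2 was highest toward the villus tip, with ratios of 1.88 and 1.63 in spots high for Ada, Nt5e, Slc28a2 and Apoa4, where 2.07% of genes were called higher. In crypt-high spots it had -2.08 and -2.25, where 5.47% were called lower. In colon surface-high spots it had 2.23 and 2.22, where 5.07% were called higher. Rbp7 had 1.07 and 1.41 in small intestinal crypt-high spots, where 9.3% were called higher.

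**Figure D5:**
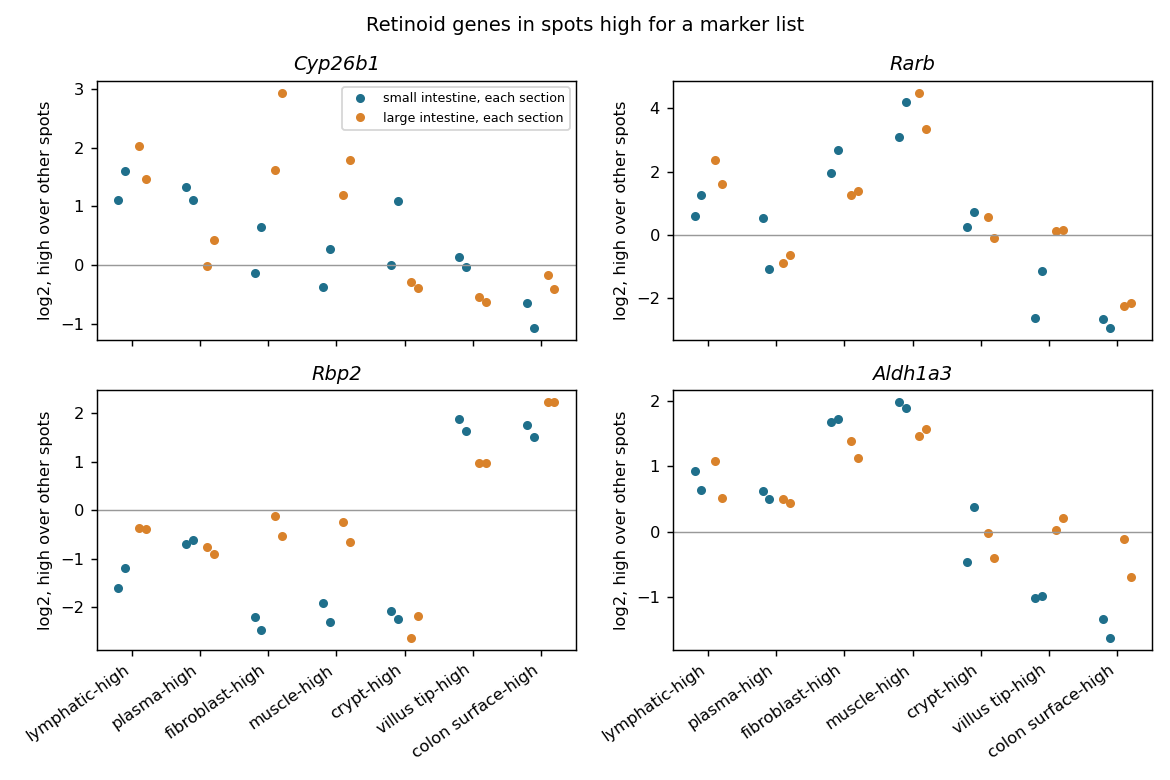
Log2 ratio of CPM between spots high for a marker list and the other spots, for 4 genes, with 1 point per section and the grey line at 0. Rarb reaches 3.08 to 4.49 in muscle-high spots of both tissues, and Rbp2 is positive in villus tip-high and colon surface-high spots and negative in crypt-high spots.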

How the data were processed

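The authors deposited matrices of raw UMI counts per gene and barcode, made with Cell Ranger 6.0.1 (single cells) and Space Ranger 1.2.1 (Visium) per the file headers; the submitters' processing notes name mm10. The counts were not normalized. The 9 genes, the pathway list of 59 genes (members included) and the marker lists were chosen with earlier results of these data known. Barcodes under 500 genes or over 20% mitochondrial UMIs were dropped, then those ranked highest by Scrublet, a number set at 0.8% per 1000 cells. Clustering used scanpy 1.11.5 (2000 variable genes, 30 components, 15 neighbours, Leiden resolution 1, 0.5 for spots). The 59 pathway genes were left out of it. Clusters took a class from 24 marker lists where at least 3 markers were detected in 10% of cells and 1 log2 unit higher. A small intestinal cluster of 122 cells with colonocyte markers was left unnamed, chosen after its values were seen. Classes under 20 cells were not compared. Spots with at least 500 UMIs were kept.

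Counts were summed per class, library or section and divided by the summed UMIs. Exact Poisson, binomial and count-ratio intervals at 95% cover counting error only. Deposited depth was 24356162 to 142499881 UMIs per library. No test over replicates was made, because each group was 1 library and sections were technical duplicates. Named genes were the 9 members, up to 5 pathway genes called in each direction of a comparison, pathway genes highest in a class, and the 5 genes most like Cyp26b1 and 3 most like other members. Alternatives were other cell filters, doublets kept, other resolutions, a per-cell gate, means over cells, other totals, and sections or top cells left out. Results for a few genes outside the 9 are not reported here.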

Additional observations from a re-analysis of the deposited data

Results flagged for a closer look

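Aldh1a1 went opposite ways between the tissues in different classes. Its log2 ratio of small over large intestine was 1.05 in fibroblast-like cells, from 35 and 161 UMIs, and -1.40 in stem-like cells, from 11 and 262 UMIs. The fibroblast ratio was between 0.45 and 0.90 under 5 alternatives and then not called. Rbp7 also went opposite ways, with 2.59 in stem-like cells (48 and 72 UMIs) and -2.53 in lymphatic endothelial-like cells (19 and 56 UMIs). The stem-like class was called for 16.6% of genes, and its Rbp7 ratio was between 0.60 and 4.44 with other cell filters and resolutions. With 1 library per tissue the differences between classes were not tested.

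The barcodes removed by the mitochondrial limit also held Cyp26b1. The 5497 small intestinal ones had 140 UMIs in 84 barcodes, 14.83 CPM without mitochondrial genes (12.5 to 17.5), against a level of 0.32 CPM for 3 UMIs. The 2060 large intestinal ones had 5 UMIs, 1.21 CPM.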

How the results depend on the processing

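Over 47 values and 282 alternatives, 249 stayed within the counting interval, 33 moved out of it and 0 called values turned direction. Cyp26b1 in small intestinal lymphatic endothelial-like cells was 829 CPM without mitochondrial and ribosomal protein genes and 118 CPM in the 9 cells without any blood endothelial marker UMI, Aqp1 included. Its ratio to the large intestine was 6.78 with a stricter cell filter and 6.36 with the per-cell gate, where fewer cells lower the bound; with those 9 cells no ratio could be given, since 3 UMIs stood against 0. Coculture over control for Rbp2 was 0.67 with a stricter filter, 0.43 as a mean over cells, 0.53 without mitochondrial and ribosomal protein genes, 0.53 without the top cells and 0.62 with median-of-ratios scaling, all outside an interval that counting error makes narrow. For Aldh1a1 it was 1.19 as a mean over cells. Leaving out a section gave Visium ratios of 2.02 to 2.42 for Cyp26b1 and 3.50 to 3.83 for Rbp2, and Rbp7 between -0.07 and 0.92. The cause was not tested. No paired analysis was possible because no result comes from a test and the sections of each tissue are technical duplicates that share only a number. The alternatives on blood endothelial markers, the unnamed lymphatic-marker cluster and top cells of a class were chosen after seeing the data, and the blood endothelial one without Aqp1 (713 CPM) was added once the value with Aqp1 was known. Depth limits Stra6, Rarb outside the lymphatic classes and Bco1 in the tissue cells, which rest on few UMIs.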
